A study of Mus musculus with 43 samples.

Results

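The 10 genes described here are markers by which astrocytes are commonly recognised: Aldh1l1, Sox9, Acsbg1, Slc7a10, F3, Ntsr2, Gpr37l1, S100b, Fabp7 and Aldoc. They were picked by name, with no threshold on a measured value, from the 55416 genes counted in each of 43 libraries. Their levels were compared between 4 glial cell types of the mouse cerebral cortex and between immunodeficient mice and their littermates.

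Astrocytes are the glial cells that clear transmitters from synapses, supply neurons with metabolites and contact blood vessels. Oligodendrocyte precursor cells (OPCs) arise from related progenitors in the developing brain and go on to form oligodendrocytes, which make myelin, whereas microglia are immune cells that enter the brain from outside. Astrocyte marker genes encode proteins of quite different kinds, and a gene that marks astrocytes against neurons need not mark them against other glia.

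The 3-month-old mice came from 6 littermate pairs of 1 colony, bred from B6.Cg-Rag2tm1.1Cgn/J and C57BL/6J mice. In each pair 1 mouse was Rag2-/-, lacking the recombinase without which T and B lymphocytes do not mature. Its littermate kept at least 1 working allele, being Rag2+/- in pairs 1, 2, 3 and 5 and Rag2+/+ in pairs 4 and 6, and both genotypes are called control. Cells of both sexes were caught on antibody-coated dishes (immunopanning), against HepaCAM for astrocytes, PDGFRα for OPCs, GalC for oligodendrocytes and CD45 for microglia, and their RNA was sequenced. Astrocytes and microglia each gave 6 control and 6 Rag2-/- libraries, OPCs gave 6 and 5 and oligodendrocytes 4 and 4, each library being 1 cell type of 1 mouse. The Rag2 deletion is present from conception in every cell, so an effect of missing lymphocytes and one of the allele itself cannot be told apart. All libraries of a cell type were sequenced on the same lane, and an effect of the lane cannot be told apart from one of the cell type.

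The libraries held 6499417 to 23118497 read pairs counted on genes, and levels are given as CPM, a gene's counts scaled to a library total of 1000000. Mitochondrially encoded genes took 6.75% to 11.7% of it in microglia, 22.4% to 45.1% in OPCs and astrocytes and 45.8% to 60.1% in oligodendrocytes, so a CPM of a nuclear gene reads lower in the latter. Markers of the other cell types were present in the astrocyte libraries. The summed level of 12 oligodendrocyte markers there was 5356 ± 742 CPM (SD, n = 12), against 21433 ± 2506 CPM (SD, n = 8) in oligodendrocyte libraries, and none of the 12 was at 0. The sums of 11 OPC, 10 microglia and 10 neuron markers in astrocyte libraries were 260 ± 86.0, 162 ± 71.8 and 416 ± 105 CPM (SD, n = 12), and the part of such RNA in the results below was not tested. In these bulk samples, fewer cells of a type and less RNA per cell cannot be told apart. Rag2 itself had at most 4 counts in any library and was above 0 in 3 of 22 control and 0 of 21 Rag2-/- libraries, too few to check the genotype labels. Its neighbour Iftap, chosen after its values were seen, had 14 to 208 counts in every control library and 0 to 2 in every Rag2-/- library, so no library went against its genotype label.

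The genes lie on 8 chromosomes of the mouse genome GRCm39, and all are protein-coding. Sequences of 250 bases before the start of the canonical transcript are shown for 4 of them. Aldoc and Sox9 had the pattern typical of the group, while S100b and Fabp7 stood apart from it among cell types. They come from chr11:78213544-78213793, chr11:112672759-112673008, chr10:76089234-76089483 and chr10:57660706-57660955, all on the plus strand, and read 5′ to 3′. Capitals mark the only searched motif found in them, TTGGCA, the half-site of nuclear factor I, on either strand.
Aldoc: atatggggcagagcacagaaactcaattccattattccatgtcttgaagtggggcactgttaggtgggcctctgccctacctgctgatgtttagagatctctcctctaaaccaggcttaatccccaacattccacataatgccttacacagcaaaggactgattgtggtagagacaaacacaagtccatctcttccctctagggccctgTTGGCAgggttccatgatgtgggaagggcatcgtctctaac
Sox9: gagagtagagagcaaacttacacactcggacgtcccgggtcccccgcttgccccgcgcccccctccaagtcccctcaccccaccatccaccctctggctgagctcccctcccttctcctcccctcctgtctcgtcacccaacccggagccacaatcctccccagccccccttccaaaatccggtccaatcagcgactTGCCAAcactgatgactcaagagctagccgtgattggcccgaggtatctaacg
S100b: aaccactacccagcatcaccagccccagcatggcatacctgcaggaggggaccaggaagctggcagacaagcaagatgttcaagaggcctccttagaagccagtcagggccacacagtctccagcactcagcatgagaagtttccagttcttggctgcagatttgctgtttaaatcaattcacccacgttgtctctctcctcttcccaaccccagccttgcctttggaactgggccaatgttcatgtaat
Fabp7: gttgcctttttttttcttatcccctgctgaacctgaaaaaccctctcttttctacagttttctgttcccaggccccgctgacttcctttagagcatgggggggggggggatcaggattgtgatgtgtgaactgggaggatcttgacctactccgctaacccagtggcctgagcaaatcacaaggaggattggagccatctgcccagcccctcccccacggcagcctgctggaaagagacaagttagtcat
The motif TTGGCA began 41 bases before the start in Aldoc and, on the other strand, 53 bases before it in Sox9. It occurred in 2 of the 10 members, these 2 alone, and in 12.3% of the 21770 promoters of the same length. Other members with a pattern like that of Aldoc and Sox9 lacked it. ACAATG and ACAAAG, the core sites of SOX proteins, occurred in none of the 10 members and in 9.4% and 15.9% of all promoters, and CAGCTG in none and in 11.9%. TATAAA was found only in Aldh1l1, and in 11.9% of all promoters. The members' promoters were as rich in G and C as the rest, with a median of 52.8% against 53.2%. Their median ratio of observed to expected CG dinucleotides was 0.212, against 0.474 over all promoters. A match to so short a motif is a description of these letters and not evidence of binding.

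The transcription factor among them, Sox9, drives glial fate in the developing brain and stays on in adult astrocytes. It is encoded at chr11:112673009-112678586 (ENSMUSG00000000567, plus strand, 3 exon blocks). Its level in control astrocytes ran from 207 CPM over a median of 338 to 484 CPM, and in Rag2-/- astrocytes from 180 over 332 to 410 CPM. In OPCs it had a median of 41.3 and a highest value of 72.2 CPM in controls and 33.5 to 96.2 CPM in Rag2-/- mice, in oligodendrocytes 1.40 to 22.9 CPM and in microglia 0.558 to 6.99 CPM over both genotypes. Every astrocyte library thus lay above every library of another type, by at least 1.87-fold over OPCs.

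Aldh1l1, a folate enzyme of the cytosol whose promoter is widely used to label astrocytes, lies at chr6:90463409-90577185 (ENSMUSG00000030088, plus strand). It reached 104.4 to 158 CPM with a median of 134 CPM in control astrocytes and 94.5 to 158 CPM with a median of 122 CPM in Rag2-/- astrocytes. In control OPCs its 6 values were 14.7, 20.6, 13.3, 5.86, 6.28 and 13.9 CPM, and in Rag2-/- OPCs its 5 values were 41.3, 30.5, 22.2, 20.9 and 14.4 CPM. The OPC groups overlapped only through the lowest Rag2-/- value and the 2 highest control values. Oligodendrocytes and microglia stayed at or under 7.88 and 7.41 CPM, and 1 microglia library had no count, which allows up to 0.245 CPM.

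Aldoc, the aldolase of brain glycolysis (chr11:78213619-78218889, ENSMUSG00000017390, plus strand), was the most abundant member in astrocytes on every scale used. It ran from 2342 over 3197 to 3947 CPM in control astrocytes and from 2437 over 2735 to 3853 CPM in Rag2-/- astrocytes. In OPCs it had 526, 629, 488, 319, 294 and 599 CPM in controls and 1038, 722, 444, 619 and 527 CPM in Rag2-/- mice. The highest OPC library, of the Rag2-/- mouse of pair 1, was still 2.26-fold under the lowest astrocyte library. Oligodendrocytes had 90.5 to 217 CPM and microglia 15.5 to 40.5 CPM.

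Acsbg1, an acyl-CoA synthetase that activates long-chain fatty acids (chr9:54510840-54569197, ENSMUSG00000032281, minus strand), had 322 ± 53.5 CPM (SD, n = 6) in control and 310 ± 74.7 CPM (SD, n = 6) in Rag2-/- astrocytes. In OPCs it was 33.8, 52.4, 47.1, 25.7, 18.2 and 51.7 CPM in controls and 122, 69.4, 28.8, 54.0 and 41.0 CPM in Rag2-/- mice. The 3 highest OPC values were all from Rag2-/- mice, and the other values of the groups overlapped. Slc7a10, an exchanger of D-serine and small neutral amino acids (chr7:34885666-34906995, ENSMUSG00000030495, plus strand), was the scarcest member, at 63.4 ± 10.4 CPM (SD, n = 6) in control and 60.2 ± 22.9 CPM (SD, n = 6) in Rag2-/- astrocytes. One OPC library reached its range there, the Rag2-/- mouse of pair 1 with 33.3 CPM, against 33.1 CPM in the lowest astrocyte library. Slc7a10 had no count in 3 of 12 microglia libraries, which allows up to 0.462 CPM in the shallowest of them.

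Of the 3 membrane receptors, F3 is tissue factor, the protein that starts blood clotting (chr3:121516610-121528820, ENSMUSG00000028128, plus strand). Its level was 193 to 334 CPM in control and 184 to 334 CPM in Rag2-/- astrocytes. Control OPCs had 56.6, 73.6, 48.1, 49.6, 60.2 and 62.6 CPM and Rag2-/- OPCs 119, 81.2, 56.7, 66.5 and 79.7 CPM, so that 3 of 5 Rag2-/- values lay above all controls. Its levels in oligodendrocytes (1.41 to 10.2 CPM) and microglia (3.69 to 6.86 CPM) overlapped. Ntsr2, a receptor for the peptide neurotensin (chr12:16703383-16710243, ENSMUSG00000020591, plus strand), had 465 ± 93.9 CPM (SD, n = 6) in control and 457 ± 94.1 CPM (SD, n = 6) in Rag2-/- astrocytes. Its OPC values were 70.3, 87.3, 58.3, 51.4, 35.6 and 73.7 CPM in controls and 162, 87.9, 56.7, 97.8 and 87.5 CPM in Rag2-/- mice. Rag2-/- values were the 4 highest of the 11.

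Gpr37l1, a receptor related to the endothelin receptors (chr1:135087972-135095419, ENSMUSG00000026424, minus strand), differed from these in that OPCs held a large amount of it. It was 762 to 1317 CPM in control and 750 to 1536 CPM in Rag2-/- astrocytes. Control OPCs had 497, 515, 553, 479, 508 and 524 CPM and Rag2-/- OPCs 717, 560, 545, 491 and 531 CPM. The lowest astrocyte library was only 1.05-fold above the highest OPC library. Oligodendrocytes had 25.1 to 70.0 CPM.

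S100b, a small calcium-binding protein that is also secreted (chr10:76085090-76097159, ENSMUSG00000033208, plus strand), was spread over all 3 cell types of the neural lineage. It was 109 over 134 to 156 CPM in control and 104.5 over 126 to 170 CPM in Rag2-/- astrocytes. OPCs had 118, 125, 105, 102, 126 and 124 CPM in controls and 118, 125, 135, 101 and 109 CPM in Rag2-/- mice, inside or just under the astrocyte range. Oligodendrocytes had 101, 70.8, 51.4 and 49.7 CPM in controls and 67.7, 116, 112 and 98.0 CPM in Rag2-/- mice, and the genotypes overlapped each other. In CPM, all control values lay under the lowest astrocyte library, at 104.5 CPM. Of the Rag2-/- values only 116 and 112 CPM reached the astrocyte range. This order depended on scaling. With trimmed mean (TMM) factors the astrocyte range was 109 to 165 CPM. Rag2-/- oligodendrocytes of pairs 3, 5 and 6 then lay above it, at 169, 189 and 186 CPM. The oligodendrocyte control of pair 1 lay inside it, at 158 CPM, and the other oligodendrocyte values stayed under it. Microglia, with 0.861 to 4.66 CPM, were the only cell type clearly apart in both genotypes.

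Fabp7, the fatty acid-binding protein of radial glia and their descendants (chr10:57660956-57664554, ENSMUSG00000019874, plus strand), was the only member whose mean was higher in OPCs than in astrocytes. Control astrocytes had 92.5 over 118 to 135 CPM and Rag2-/- astrocytes 70.2 over 99.9 to 144 CPM. Control OPCs had 253, 232, 165, 203, 305 and 133 CPM and Rag2-/- OPCs 242, 199, 236, 119 and 138 CPM. The 3 lowest OPC libraries, at 119 to 138 CPM, fell within the astrocyte range. Oligodendrocytes had 1.84 to 31.0 CPM and microglia 0.154 to 5.82 CPM.

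**Figure D1:**
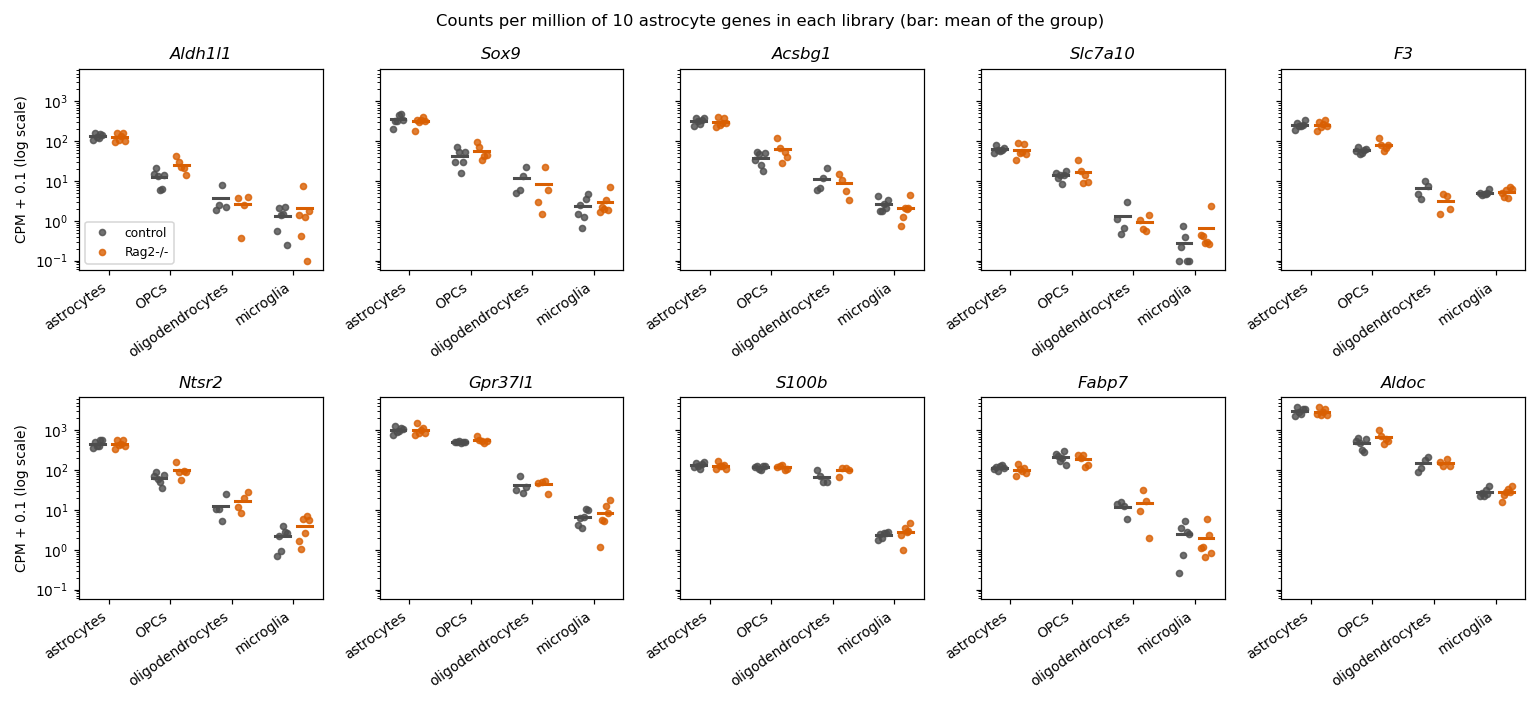
Level (CPM + 0.1, log scale) of each of the 10 genes in each of the 43 libraries, by cell type, with controls in grey and Rag2-/- mice in orange and a bar at each group's mean. For 7 genes every astrocyte point lies above every OPC point, while Slc7a10, S100b and Fabp7 overlap, and S100b is the only gene whose oligodendrocyte points reach the astrocyte range. The share of all genes separated in this way was not computed.

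Compared per kilobase of exon, the only scale on which levels of different genes are set side by side here, the members spanned a wide range in astrocytes. Aldoc had 651 ± 124 CPM per kb (SD, n = 12) and ranked 4 of 21614 coding genes by this level, with mitochondrially encoded genes left out of all ranks. Gpr37l1 followed with 452 ± 103 CPM per kb at rank 9. Ntsr2 came next with 147 ± 28.6 CPM per kb. Fabp7 (85.5), F3 (83.7) and Sox9 (81.0 CPM per kb) did not differ beyond their spreads of 16.7, 15.6 and 21.1, and S100b had 65.6 ± 10.2 and Acsbg1 48.2 ± 9.48 CPM per kb. The 2 lowest were Aldh1l1, 15.2 ± 2.85 CPM per kb at rank 840, and Slc7a10, 6.25 ± 1.72 CPM per kb at rank 2487. In OPCs the order changed. Gpr37l1 led with 237 ± 28.5 CPM per kb, again at rank 9 of these coding genes, before Fabp7 with 158 ± 45.6 at rank 23, Aldoc with 121 ± 43.6 at rank 41 and S100b with 58.6 ± 5.58 CPM per kb at rank 128. In oligodendrocytes S100b led with 41.7 ± 13.3 CPM per kb at rank 100, before Aldoc with 32.3 ± 9.20 at rank 143 (SD, n = 8). Exon lengths are those of all annotated transcripts joined, 9890 bases for Slc7a10 and 8516 for Aldh1l1, which lowers the values of genes with long, little-used transcripts.

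Set against the mean astrocyte level in CPM, OPCs held 14.3% ± 7.98 of Aldh1l1, 14.6% ± 6.94 of Sox9, 15.6% ± 8.94 of Acsbg1, 17.1% ± 7.23 of Ntsr2 and 18.6% ± 6.70 of Aldoc (SD, n = 11). These 5 shares lay within 1 SD of each other. Slc7a10 had 24.3% ± 11.1 and F3 26.4% ± 7.71, and the 3 genes apart from the rest were Gpr37l1 with 52.4% ± 6.31, S100b with 89.4% ± 8.51 and Fabp7 with 185% ± 53.3 (SD, n = 11). In oligodendrocytes S100b held 63.6% ± 20.3 and Fabp7 12.2% ± 8.01 (SD, n = 8), and the other 8 members 1.65% to 4.97%. These shares depend on scaling, and with TMM-normalized CPM S100b in oligodendrocytes had 100.5% ± 32.6, Fabp7 18.5% ± 11.1 and Aldoc 8.02% ± 2.82 (SD, n = 8). In microglia all 10 held 0.604% to 1.98%. A list of 40 other astrocyte genes, such as the glutamate transporter Slc1a2 and the water channel Aqp4, gave similar medians, 19.5% in OPCs against 21.4% for the members, 3.45% against 3.20% in oligodendrocytes and 1.15% against 0.847% in microglia. Single genes of that list reached far more in microglia, with 446% for Cst3 and 98.3% for Mertk, where no member exceeded 1.98%. How much of a level in another cell type came from astrocytes carried over in panning was not tested.

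The next question was which of these differences exceeded the spread between mice. Counts of all genes past a filter were fitted with edgeR's quasi-likelihood test, with trimmed mean (TMM) scaling and a term for sex, in control mice and in Rag2-/- mice separately. Log2 fold changes carry their standard errors, and p-values were adjusted by Benjamini and Hochberg over all genes tested, with a call at an edgeR adjusted p under 0.05. Against microglia, all 10 members were called higher in control astrocytes, where 32% of 19368 genes were, and the differences were 5.81 to 8.56 (log2). All 10 were also called in Rag2-/- mice, at 5.84 to 7.58, where 31.7% of 19412 genes were.

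Against oligodendrocytes, 9 of 10 members were called higher in control astrocytes, where 18.7% of all genes were called higher. The differences of the 9 were largest for Slc7a10 (4.99 ± 0.55), Aldh1l1 (4.70 ± 0.46) and F3 (4.65 ± 0.31) and smallest for Aldoc (3.67 ± 0.33) and Fabp7 (2.71 ± 0.38). S100b was the exception, with a log2 difference of 0.37 ± 0.17 and an edgeR adjusted p of 0.0790. Leaving out the oligodendrocyte control of pair 1, its highest of the 4, gave 0.56 and an edgeR adjusted p of 0.00636. In Rag2-/- mice the same 9 members were called, where 20.4% of all genes were, from 2.38 ± 0.50 for Fabp7 to 5.90 ± 0.31 for F3, and S100b had -0.17 ± 0.22 with an edgeR adjusted p of 0.574.

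Against OPCs, 9 of 10 members were called higher in control astrocytes, beside 14.4% of all genes. Aldh1l1 had the largest difference, 3.87 ± 0.36 (14.6-fold), before Sox9 with 3.55 ± 0.45, Acsbg1 with 3.53 ± 0.35, Ntsr2 with 3.34 ± 0.36 and Aldoc with 3.16 ± 0.27. Slc7a10 (2.69 ± 0.39) and F3 (2.62 ± 0.23) followed. Gpr37l1 had 1.46 ± 0.21 (2.75-fold, edgeR adjusted p = 9.31e-06) and S100b 0.67 ± 0.15 (1.59-fold, edgeR adjusted p = 0.00105). Fabp7 was not called, with -0.39 ± 0.30 and an edgeR adjusted p of 0.354, though limma voom called it lower in astrocytes at nearly the same fold (-0.38, adjusted p = 0.0439). In Rag2-/- mice the same 9 were called, beside 11.7% of all genes. The differences ran from 2.14 ± 0.23 for F3 to 2.85 ± 0.46 for Sox9 in 7 of them, with Gpr37l1 at 1.28 ± 0.33, S100b at 0.58 ± 0.21 and Fabp7, not called, at -0.33 ± 0.42. The S100b call there was close to the threshold, with an edgeR adjusted p of 0.0474. It was lost, at 0.0602, with the mouse as a block and in 17 of 21 fits that left out 1 library each.

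The S100b and Fabp7 calls depended on how libraries were put on a common scale. With totals alone in place of TMM factors, the median log2 difference of all genes between control astrocytes and OPCs moved from -0.05 to -0.52, and the split of called genes from 2782 higher and 3142 lower to 1602 and 5982. On that scale S100b had 0.20 (edgeR adjusted p = 0.362) and Fabp7 -0.87, called lower in astrocytes (edgeR adjusted p = 0.0413). Against oligodendrocytes the median moved from 0.04 to 0.62, the split from 3619 and 3767 to 6535 and 2101, and S100b became called at 0.97 (edgeR adjusted p = 0.000414). Against microglia the median moved from 0.09 to -0.15, the split from 6191 and 5633 to 5321 and 6359, and all 10 members remained called. The other 8 members kept their direction and call in the 3 comparisons with control astrocytes under this scaling, while Gpr37l1 against OPCs in Rag2-/- mice did not (0.80, edgeR adjusted p = 0.0952).

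**Figure D2:**
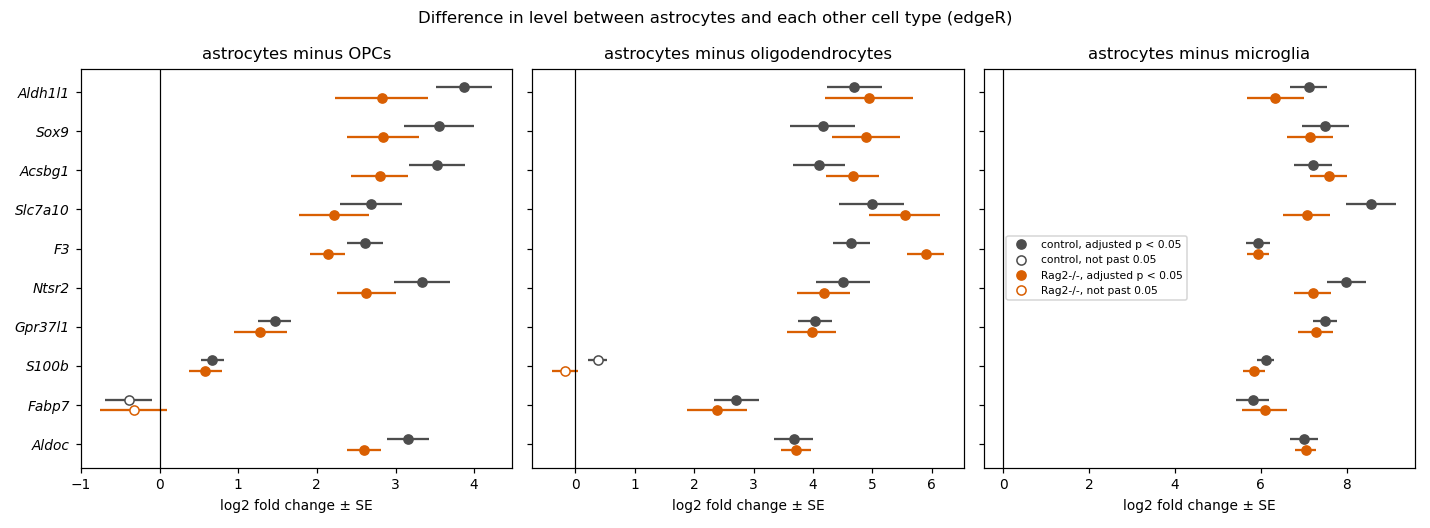
Log2 fold change with standard error of each gene between astrocytes and OPCs, oligodendrocytes or microglia, from edgeR, in control (grey) and Rag2-/- mice (orange), with open points where the adjusted p was not under 0.05. The Fabp7 points against OPCs and the S100b points against oligodendrocytes are the 4 open ones, and the points against microglia all lie between 5.81 and 8.56.

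The 40 other astrocyte genes behaved alike. Against OPCs, 38 were called higher in control astrocytes and 1 lower, with a median log2 difference of 3.05 beside 2.92 for the members and -0.05 for all genes. The largest differences were those of the NMDA receptor subunit gene Grin2c (4.34), the angiotensinogen gene Agt (4.13) and the gap junction gene Gja1 (4.03). The endothelin receptor gene Ednrb was called lower in astrocytes (-0.91 ± 0.22), and the transcription factor genes Nfia (0.51 ± 0.14, called) and Nfib (0.55 ± 0.24, not called) were the next lowest. Against oligodendrocytes all 40 were called higher, and against microglia 38 were called higher and 1 lower. Members and list were both chosen with these cell types in mind, so their direction is not independent evidence for it.

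Between the other cell types of control mice the members fell in a looser order. All 10 were called higher in OPCs than in microglia, by 3.24 to 6.21 (log2), and higher in oligodendrocytes than in microglia, by 1.28 (F3) to 5.74 (S100b), where 60.9% and 59.1% of all genes were called in either direction. The F3 call between oligodendrocytes and microglia was lost with limma voom (0.81, adjusted p = 0.110) and without TMM factors (0.36, edgeR adjusted p = 0.173). Between OPCs and oligodendrocytes 5 members were called, all higher in OPCs, where 27.6% of all genes were called in either direction. These were Fabp7 (3.10 ± 0.39), Gpr37l1 (2.57 ± 0.26), Slc7a10 (2.30 ± 0.50), F3 (2.03 ± 0.27) and Ntsr2 (1.17 ± 0.39). Aldh1l1, Sox9, Acsbg1 and Aldoc had 0.83, 0.61, 0.57 and 0.52 with edgeR adjusted p of 0.128 to 0.359, and S100b -0.30 with 0.187. This count was unstable. It was 4 to 8 when 1 library was left out, with 8 without the oligodendrocyte control of pair 6, and with totals in place of TMM factors, where the median of all genes moved from 0.15 to 1.21 and the called genes from 2942 higher and 2409 lower to 10242 and 688, all 10 were called higher in OPCs, S100b with 0.77. Limma voom called S100b the other way, lower in OPCs (-0.48, adjusted p = 0.0249).

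Close relatives of the members by gene family showed how far the pattern was one of the single gene. Of 14 paralogs, 12 were tested against OPCs in controls, of which 4 were called higher in astrocytes and 5 lower, where 14.4% and 16.2% of all genes were. Sox9 and Sox10 differed between astrocytes and OPCs in opposite directions. Per kb of exon, Sox10, which drives the oligodendrocyte lineage, had 102 ± 13.7 CPM in OPCs (SD, n = 11), 39.7 ± 14.4 in oligodendrocytes (SD, n = 8) and 13.3 ± 5.46 in astrocytes (SD, n = 12), where Sox9 had 81.0 ± 21.1. Sox8 was not called between control astrocytes and oligodendrocytes (-0.43 ± 0.22, edgeR adjusted p = 0.128). The log2 difference between astrocytes and OPCs was -2.39 ± 0.45 for Sox10 and -0.98 ± 0.20 for Sox8, both called. Aldh1l2, the mitochondrial counterpart of Aldh1l1, was likewise called lower in astrocytes than in OPCs (-2.66 ± 0.35).

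Among the amino acid transporters of the Slc7 family, Slc7a11, which imports cystine, was called higher in astrocytes than in OPCs (3.20 ± 0.32) and reached 22.1 ± 4.06 CPM per kb (SD, n = 12), where Slc7a10 had 6.25 ± 1.72. Slc7a8 was highest in microglia, with 37.9 ± 7.46 CPM per kb (SD, n = 12) against 0.623 ± 0.280 in astrocytes (SD, n = 12), a log2 difference of -5.38 ± 0.36 (called). Gpr37, the nearest relative of Gpr37l1, was called higher in astrocytes than in OPCs (2.97 ± 0.49) but lower than in oligodendrocytes (-1.34 ± 0.50). Its levels were 25.1 ± 7.59 CPM per kb in oligodendrocytes (SD, n = 8), 14.3 ± 2.55 in astrocytes (SD, n = 12) and 2.80 ± 2.02 in OPCs (SD, n = 11), with Gpr37l1 at 18.9 ± 6.75, 452 ± 103 and 237 ± 28.5.

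The epidermal fatty acid-binding protein gene Fabp5 was called higher in astrocytes than in OPCs (2.68 ± 0.25), where Fabp7 had -0.39 ± 0.30. Its level is uncertain, since 57.2% of the stretches of 50 bases along its transcript recur identically at other genomic places, against 0.0% for each member. S100a1 (-0.58 ± 0.21) was called lower in astrocytes than in OPCs and S100a16 (-0.55 ± 0.26, edgeR adjusted p = 0.123) was not called, where S100b had 0.67 ± 0.15. S100a1 shares 89.2% of its exon bases with genes on the opposite strand. Aldoa, the aldolase found in most tissues, ranged from 20.98 ± 6.10 CPM per kb in oligodendrocytes (SD, n = 8) to 45.5 ± 8.64 in astrocytes (SD, n = 12). Its astrocyte to OPC difference was 0.98 ± 0.19 (called), against 3.16 ± 0.27 for Aldoc. Acsbg2, Ntsr1 and Fabp3 stayed at or under a mean of 0.215 CPM per kb in every cell type.

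**Figure D3:**
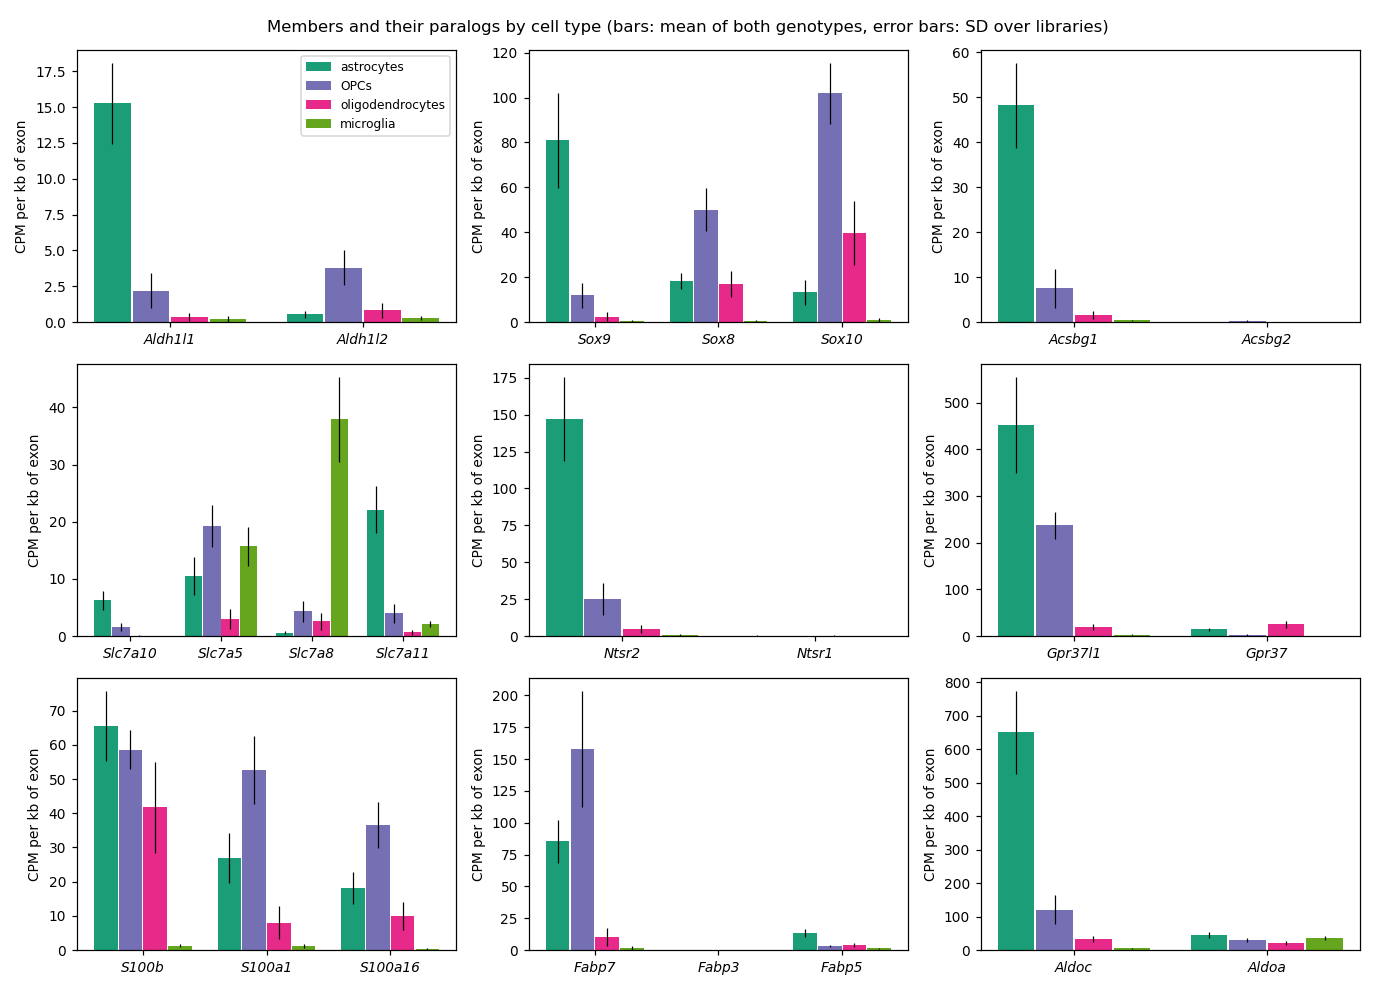
Levels of the 9 members that have paralogs on the list and of those 14 paralogs, in CPM per kb of exon (linear axes from 0), with bars for the mean over both genotypes and error bars for the SD over libraries of a cell type. Sox10 is highest in OPCs (102 CPM per kb) where Sox9 is highest in astrocytes (81.0 CPM per kb), and Gpr37 is highest in oligodendrocytes (25.1 CPM per kb).

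Overlap with other genes limits some of these levels. Exons of genes on the opposite strand cover 50.2% of Slc7a10 (Lrp3), 28.6% of Acsbg1 (Idh3a), 20.7% of F3 and 16.9% of Ntsr2 (Lpin1), less of Sox9, Aldh1l1 and Fabp7, and 0.0% of Gpr37l1, S100b and Aldoc. Whether the counting used strand is not given in the sources used here, and without strand, reads in the overlap cannot be assigned. Lrp3 was itself at 36.5 ± 8.52 CPM in OPCs (SD, n = 11) and 14.01 ± 4.48 CPM in astrocytes (SD, n = 12), the opposite order to Slc7a10.

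The main comparison of the study was between Rag2-/- mice and controls within a cell type, and in astrocytes the 10 genes differed little. The log2 fold changes, Rag2-/- minus control, ran from -0.14 ± 0.12 for Fabp7 and -0.14 ± 0.16 for Sox9 to 0.05 ± 0.11 for F3, with 4 positive and 6 negative and a median of -0.02, and the sign turned for 6 members in some fit without 1 library. None of the 10 was called, and all had an edgeR adjusted p of 0.9998. Of 14725 genes, 0.00679% were called, which was Iftap alone, and 423 had an unadjusted p under 0.05. DESeq2 and limma voom also called 0 members and 1 gene each. With standard errors of 0.09 to 0.16, the largest of these shifts was smaller than its SE or just above it. The 40 other astrocyte genes had 0 calls and a median of 0.02. Of the 11 OPC markers in the astrocyte libraries, 10 had positive fold changes (median 0.41). Neuron, microglia and oligodendrocyte markers had 7 of 10, 7 of 10 and 9 of 12 positive (medians 0.28, 0.18 and 0.04). Of the endothelial, mural and fibroblast, and ependymal and stem cell markers tested, 2 of 5, 2 of 4 and 2 of 6 were positive (medians -0.04, -0.01 and -0.07). In each of these lists 0 were called, and their part was not tested.

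In OPCs, 9 of the 10 genes had positive fold changes, though none was called, where 0.00592% of 16882 genes were. The largest was Aldh1l1 with 1.09 ± 0.33 (2.13-fold), before Acsbg1 with 0.76 ± 0.33, Ntsr2 with 0.69 ± 0.25, Aldoc with 0.54 ± 0.22, F3 with 0.51 ± 0.16 and Sox9 with 0.49 ± 0.32. Slc7a10 had 0.32 ± 0.30, Gpr37l1 0.21 ± 0.09, S100b 0.07 ± 0.11 and Fabp7 -0.15 ± 0.19. All had an edgeR adjusted p of 0.9998, and 679 of all genes had an unadjusted p under 0.05. DESeq2 called 0 members and 3 genes, and limma voom 0 members and 1 gene. Aldh1l1 and F3 were higher in the Rag2-/- mouse in 5 of 5 littermate pairs, Ntsr2 and Gpr37l1 in 4 of 5 Acsbg1, Sox9, Slc7a10 and Aldoc in 3 of 5, Fabp7 in 2 of 5 and S100b in 1 of 5.

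With no filter on low counts, edgeR called 4 members higher in Rag2-/- OPCs, beside 0.239% of 33850 genes called in that direction. These were Aldoc (0.55) and Ntsr2 (0.70), each with an edgeR adjusted p of 0.00241, and Aldh1l1 (1.09) and Acsbg1 (0.77), each with 0.00518. The fold changes were almost those of the filtered fit, and the calls rested on single libraries. In fits added after seeing the data that left out 1 library each, the count was 0 without the Rag2-/- mouse of pair 1, 0 without the control of pair 5, 1 without the Rag2-/- mouse of pair 2 and 4 or 5 otherwise.

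Summed levels of marker lists in the same OPC libraries are given beside these fold changes. Of the 40 other astrocyte genes, 36 had positive fold changes in OPCs and 0 were called, with a median of 0.52 beside 0.50 for the members and -0.006 for all genes. Their summed level was 9087 to 11362 CPM in control OPC libraries and 10654 to 19002 CPM in Rag2-/- ones, the highest being that of pair 1. All 8 endothelial markers had positive fold changes (median 0.72, 0 called), with sums of 40.2 to 101 CPM in controls and 51.3 to 179 CPM in Rag2-/- mice. Of 8 mural and fibroblast markers 6 were positive (median 0.30, 0 called), with sums of 98.5 to 282 CPM and 110 to 437 CPM. Of 11 OPC markers 3 were positive (median -0.06, 0 called), with sums of 5170 to 6960 CPM and 4494 to 6157 CPM. Oligodendrocyte, microglia and neuron markers had 9 of 12, 5 of 10 and 4 of 10 positive (medians 0.11, -0.05 and -0.07, 0 called). None of the endothelial or mural markers was at 0 in all OPC libraries of a genotype. The part of this RNA in the fold changes of the members was not tested.

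Across the 11 OPC libraries, the level of a member was then set against the summed level of the 40 other astrocyte genes, as log2 of CPM + 1 for the member and log2 of CPM for the sum, which share 1 total per library. The relation was computed for 10 genes in 3 cell types, and permutation p-values were adjusted over these 30. It passed for 8 members, all but S100b and Fabp7. The share of all genes that would pass was not computed, so this count has no background to be read against. Pearson's r was 0.90 for Acsbg1 (permutation, adjusted p = 0.00075, Spearman's rho 0.97, adjusted p = 0.0006) and 0.88 for Aldoc (permutation, adjusted p = 0.00075, rho 0.92, adjusted p = 0.00285). For Aldh1l1 it was 0.83 (permutation, adjusted p = 0.0024, rho 0.73, adjusted p = 0.0736), for Ntsr2 0.84 (permutation, adjusted p = 0.00562, rho 0.88, adjusted p = 0.00562) and for Sox9 0.80 (permutation, adjusted p = 0.0115, rho 0.89, adjusted p = 0.0049). The other 3 were Gpr37l1, F3 and Slc7a10, with r of 0.92, 0.86 and 0.83 (permutation, adjusted p = 0.0115, 0.0115 and 0.0157) and rho of 0.59, 0.73 and 0.65 (adjusted p = 0.205, 0.0736 and 0.123).

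S100b had r of 0.13 (permutation, adjusted p = 0.826, rho -0.10, adjusted p = 0.944) and Fabp7 r of 0.02 (permutation, adjusted p = 0.984, rho -0.40, adjusted p = 0.451). Without the 2 libraries farthest from the median sum, r was 0.90 for Acsbg1, 0.86 for Aldoc, 0.82 for Aldh1l1, 0.78 for Sox9 and 0.71 for Ntsr2, but 0.51 for F3, 0.44 for Gpr37l1 and 0.36 for Slc7a10, and Acsbg1 alone still passed. With TMM-normalized CPM the relation of Slc7a10 no longer passed (r = 0.71, permutation, adjusted p = 0.0669). The relations of F3, Gpr37l1 and Slc7a10 thus rested on those libraries. Within genotypes, r of the 8 members was 0.47 to 0.93 in the 6 controls and 0.87 to 0.96 in the 5 Rag2-/- libraries. Those 5 include the library of pair 1, with a sum of 19002 CPM against a group mean of 12935 CPM, so 1 point weighs heavily in the Rag2-/- values. In the 8 oligodendrocyte libraries (exact permutation) no member passed, and the highest r was that of Gpr37l1, 0.78 (exact permutation, adjusted p = 0.0847, rho 0.79, adjusted p = 0.120). In the 12 microglia libraries the sum was 17447 CPM, of which Cst3, a gene that microglia express strongly, made up 14195 CPM, so no relation to astrocyte RNA can be read from it there.

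**Figure D4:**
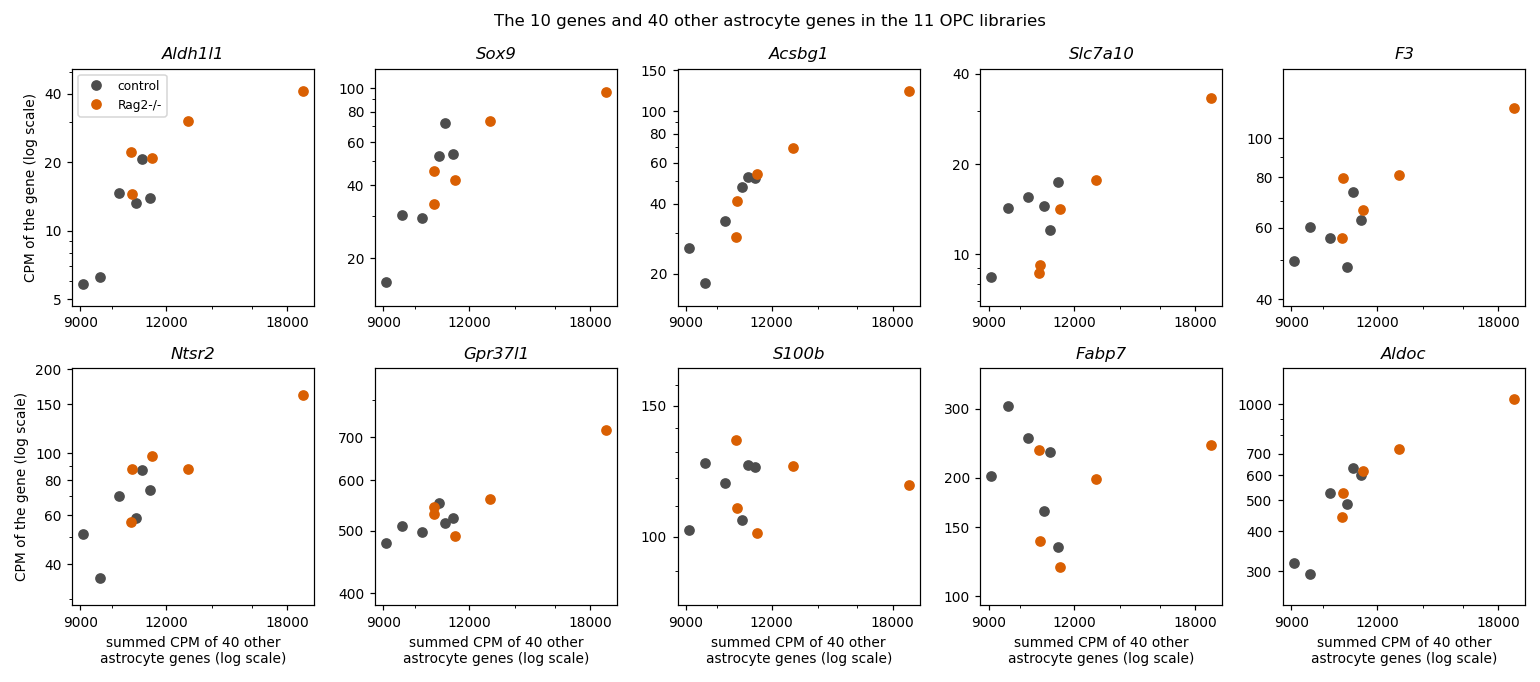
Level of each gene (CPM, log scale, a separate range per gene) against the summed CPM of 40 other astrocyte genes (log scale) in the 11 OPC libraries, with controls in grey and Rag2-/- mice in orange. Aldh1l1, Acsbg1 and Aldoc climb with the sum, the Rag2-/- library of pair 1 lies far right at 19002 CPM, and S100b and Fabp7 show no such trend.

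In oligodendrocytes none of the 10 was called, where 0% of 13802 genes were (467 had an unadjusted p under 0.05, DESeq2 called 0 members and 12 genes, and limma voom 0 and 0). Iftap was thus not called there by edgeR either, though every Rag2-/- library had 0 to 2 counts of it and every control 14 to 208. The lack of calls in these 4 and 4 libraries therefore does not show a lack of differences. The levels of the members were low and spread widely. Sox9 had -1.72 ± 0.96, F3 -1.27 ± 0.71 and S100b 0.52 ± 0.30, each with an edgeR adjusted p of 0.9979, and the other 7 lay between -0.58 and 0.33. S100b was the only abundant one of these 3. In microglia 9 members passed the filter and none was called, where 0.00667% of 15003 genes were (435 had an unadjusted p under 0.05, and DESeq2 and limma voom called 0 members and 1 gene each). They ran from -0.38 ± 0.48 for Acsbg1 to 0.81 ± 0.49 for Ntsr2, and Slc7a10, tested without the filter, had 1.30 ± 1.15. The difference of the genotype effect between astrocytes and the mean of the other 3 cell types, tested in 1 fit of all 43 libraries, was called for 0 of 10 members and 0% of 21368 genes (1098 with an unadjusted p under 0.05, with 0 members and 19 genes called by DESeq2 and 0 and 0 by limma voom). The members ran from -0.59 ± 0.40 for Ntsr2 to 0.24 ± 0.25 for F3.

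**Figure D5:**
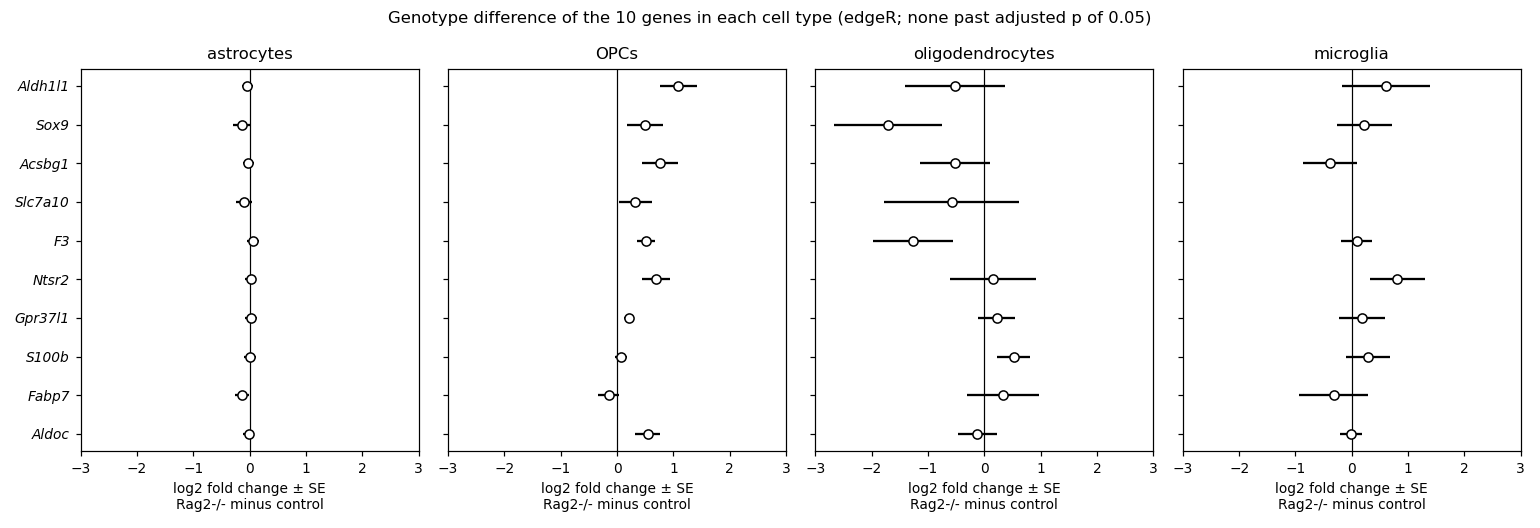
Log2 fold change with standard error between Rag2-/- and control libraries of each gene in each cell type, from edgeR, all open because none had an adjusted p under 0.05. Astrocyte points lie between -0.14 and 0.05, OPC points between -0.15 and 1.09, and the bars are widest in oligodendrocytes and microglia, where Slc7a10 was not tested in microglia.

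Sex was a term of the same fits. Pairs 1, 3 and 4 were male and pairs 2 and 5 female, and only pair 6 held both sexes. A difference by sex can therefore hardly be told apart from one by litter. All 10 members had higher fitted levels in female than in male astrocytes, from 0.09 ± 0.11 for S100b over 0.32 ± 0.10 for Gpr37l1 to 0.40 ± 0.14 for Slc7a10, with a median of 0.25 beside 0.12 for the 40 other astrocyte genes, of which 33 were positive. None was called (lowest edgeR adjusted p = 0.716, and DESeq2 and limma voom also called 0 members), where 0.0407% of all genes were and 991 had an unadjusted p under 0.05. The members' levels were related within astrocyte libraries (median Pearson r 0.83), so their 10 signs are not separate observations. The share of all genes with a positive value is not reported here. In OPCs 4 of 10 were positive and none was called (0.0296% of genes called), with values of -0.25 to 0.30, and the sign turned for 7 members in some fit without 1 library. The difference in the sex effect between cell types was not tested. In oligodendrocytes 6 of 10 were positive (0.0362% of genes called) and in microglia 7 of 9 (0.0467%), with none called and the lowest edgeR adjusted p at 0.608.

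Over all 43 libraries the members' levels (log2 of CPM + 1) were closely related, with a median Pearson r of 0.94 over the 45 pairs and a range of 0.68 to 0.99. These points share cell type, lane and total, so the values describe the split by cell type. Within the 12 astrocyte libraries the median was 0.83 (0.36 to 0.94), and within the 11 OPC libraries it was 0.70, with values down to -0.30 for pairs with Fabp7. Genes of a library share 1 total there as well. Mitochondrial genes took 22.5% to 45.1% of it in astrocytes, and the part of this in the values was not tested. The genes outside the list whose levels were most like those of a member over the 43 libraries were Fam107a (r = 0.99), Slc1a2 (0.99) and Acsl6 (0.99) for Aldoc, and Kcnj10 (0.99), Clip3 (0.99) and Phyhipl (0.99) for S100b. For Gpr37l1 they were Mmd2, Ntrk2 and Tril (0.99 each), and for Fabp7 Pcdhgc3 (0.98), Fat4 (0.97) and Cspg5 (0.97). Sox9 was most like Nwd1, Aqp4 and Slc6a11 (0.98 each) and Aldh1l1 most like Scara3, Entpd2 and Cyp4f14 (0.98, 0.98 and 0.97). The nearest to Acsbg1 were Gstm5, Clu and Gstm1 (0.99, 0.98 and 0.98) and to Ntsr2 Clu (0.98). Slc7a10 and F3 had the same 2 nearest genes, Tspan7 and Mfge8, with 0.99 and 0.98 for Slc7a10 and 0.98 each for F3, and then came Prdx6 (0.98) and Igfbp2 (0.98), respectively.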

How the data were processed

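The authors aligned the read pairs to GRCm39 with STAR 2.7.8a and counted them on genes with HTSeq, per the submitters' processing notes and the methods. The deposited values are whole-number counts per gene and library, with no normalization. Sums of pairs on no gene (33.5% to 52.0% of a library) were left out. Amplified reads are not independent molecules, so limits from a count of 0 cover counting error only.

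Groups, sex and pairs came from the labels. Genes, exons and promoters came from GENCODE M39, which held 54749 of the 55416 identifiers. R 4.3.3 with edgeR 4.0.16 fitted the counts past filterByExpr (minimum count 10, minimum total 15), with terms for sex and genotype in each cell type, or for sex and cell type in each genotype. The replicates are different mice, and 2 libraries of a group never agreed within sampling noise (mean chi-square per gene at least 7.45). Deviations of littermates from their group means correlated by 0.08 to 0.13 on average, against -0.04 to -0.02 for other mice, and pairs of littermates are given by the labels.

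Alternatives were DESeq2 1.42.0 (size factors and test), limma 3.58.1 voom with quality weights, no filter, a mean count of at least 10, mitochondrial genes left out, totals without TMM factors, no sex or genotype term, a replicate block, Rag2+/- controls alone, and each library left out. The self-test used simulated data. Permutations (100000, exact for 8 libraries) were run in Python 3.11.15 with scipy 1.17.1. Named genes are the members, their paralogs, the 3 highest and 3 lowest other astrocyte genes against OPCs, and the 3 most similar genes of each member, of which the list for Ntsr2 is not reported here in full. The members and lists were chosen with earlier results of these data known.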

Additional observations from a re-analysis of the deposited data

Results flagged for a closer look

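In 7 of the 80 combinations of gene, cell type and genotype, 1 library lay so far from the others of its group that its gap exceeded Dixon's critical value. That value is set for about 1 in 20 among independent, normally distributed values. Here it was applied to CPM without a log, all 7 were highest values, and genes of 1 library are related. The count of 7 therefore has no chance rate to be read against. All 7 values were low levels in cell types other than astrocytes. The oligodendrocyte control of pair 5 had 7.88 CPM of Aldh1l1, with the other 3 at 1.82 to 2.45 CPM. In Rag2-/- microglia, pair 3 had 7.41 CPM of Aldh1l1 (others 0 to 1.69 CPM) and pair 4 had 5.82 CPM of Fabp7 (others 0.549 to 2.29 CPM). The Rag2-/- microglia of pair 6 stood out for 3 genes at once, with 6.99 CPM of Sox9 (others 1.54 to 3.20 CPM), 4.34 CPM of Acsbg1 (others 0.659 to 2.01 CPM) and 2.22 CPM of Slc7a10 (others 0.163 to 0.330 CPM). Its control littermate had 6.27 CPM of F3 in microglia, with the others at 4.24 to 4.92 CPM.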

How the results depend on the processing

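Of the alternatives run, most kept the calls of the members. Without the filter on low counts, 4 members were called by genotype in OPCs in place of 0, and the fits that also left out 1 library gave 0 to 5. No filter or limma voom gave 8 members called between OPCs and oligodendrocytes in place of 5, no TMM factors gave 10 and leaving out 1 library 4 to 8. There S100b turned from -0.30 to 0.77 (edgeR adjusted p = 0.00214) without TMM factors. Leaving out 1 library gave 8 to 9 members called between astrocytes and OPCs of Rag2-/- mice, and 9 to 10 between astrocytes and oligodendrocytes of controls. Members correlated with the other astrocyte genes numbered 8, and 1 without the 2 farthest libraries, and Slc7a10 did not pass with TMM-normalized CPM. With 2 genes dropped from that list, chosen after seeing the data, Sox9 in microglia went from r = -0.11 to 0.70 (permutation, adjusted p = 0.0354). Scaling moved S100b in oligodendrocytes from 63.6% of the astrocyte level to 91.2% with nuclear totals and 100.5% with TMM factors. The cause of these changes was not tested. The signs of uncalled values were unstable, turning under some alternative other than leaving out 1 library for 5 members by genotype in astrocytes and 5 by sex in OPCs. The replicate block (mouse or littermate pair) ended the S100b call between Rag2-/- astrocytes and OPCs (log2 0.59, edgeR adjusted p = 0.0602) and changed no other call. DESeq2 gave no adjusted p for Aldh1l1 in Rag2-/- cell type comparisons, the microglia fits and the fit of all libraries. No filter raised the genes called by genotype in OPCs from 1 to 90, and DESeq2 called 3. Few counts limit Slc7a10 in microglia, with 44 in 12 libraries.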
